A study of Mus musculus with 10 samples.

Results

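Car10, Npy1r, Slitrk5, Myh6 and Serpina5 are 5 genes without a place in the steroid synthesis pathway whose RNA was far higher in fetal mouse testes cultured with a glycogen phosphorylase inhibitor (GPI) than in their vehicle-treated partners. They are 5 of the 24470 gene entries of the count table, and 5 of the 13941 that passed a filter on low counts and were tested. They were selected on the log2 fold change between GPI and vehicle in these same libraries, so their levels and fold changes are given as a description, without a test. The genotype was C57BL/6 throughout. Gonads with their mesonephros were taken from 5 embryos at E12.5 and kept in culture for 48 h, where 1 of each pair received GPI at 75 µM and its partner received the DMSO vehicle. The gonads were then cut away from the mesonephros and each gave 1 bulk RNA library, so that both treatments hold 5 libraries, named here by mouse from M1 to M5. Total counts ran from 10203679 to 15635322 per library. Whole-gonad RNA cannot tell fewer cells of a type from less RNA per cell, and this applies to every level below.

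The fetal testis at this stage holds Sertoli cells in cords, germ cells within the cords, and an interstitium in which fetal Leydig cells begin to make androgens beside blood vessels, macrophages and progenitors. Glycogen phosphorylase releases glucose units from glycogen, and the inhibitor blocks this step. The 5 genes belong to unrelated families: they encode a carbonic anhydrase-related protein, a peptide hormone receptor, a synaptic adhesion receptor, a muscle motor protein and a secreted protease inhibitor.

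The libraries carried the RNA of a testis: Sox9 was between 984 and 1545 normalized counts in the vehicle group, and the summed level of 14 Sertoli genes was between 4809 and 7681. Normalized counts are counts divided by the library size after TMM scaling (a correction for differences in RNA composition) and multiplied by the mean library size. Insl3, a hormone of Leydig cells, had at most 7 counts in any library and was not tested. In the GPI group the library of M1 stood apart: its chi-square per degree of freedom against the other GPI libraries ran from 21.7 to 27.8, and that among the other 4 from 7.48 to 11.002, beside 6.42 to 21.2 among the vehicle libraries. Several relations across libraries are therefore also given without M1.

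The choice followed the size of the increase. Among 1256 genes that were called higher by edgeR, averaged 50 counts or more and were higher with GPI in 5 of 5 mice, the largest log2 fold change was that of Cyp17a1 (3.90). Car10 (3.68) and Npy1r (3.64) came next. After them came Gsta2 (3.24) and Sfrp4 (2.99), then Myh6 (2.99) and Serpina5 (2.93), and Slitrk5 (2.88) was the last of the top 10, behind Adh1 (2.91) and Cyp11a1 (2.90). Cyp17a1 and Cyp11a1 encode steroidogenic enzymes and were left aside by the choice. Gsta2, Sfrp4 and Adh1 encode a glutathione transferase, a secreted WNT antagonist and an alcohol dehydrogenase. They lie within the same range without being steroidogenic, so the 5 genes are not the complete set. Just below Slitrk5 came Ephx1 (2.81) and Lhcgr (2.65). The mean of Car10 was 51.1 counts per library, next to the limit of 50. Over all genes, edgeR called 22.9% at an FDR of 0.05, 11.1% higher and 11.9% lower with GPI; that 5 of 5 selected genes were among the higher ones follows from the choice. These were 1544 genes higher and 1654 lower, and with total-count scaling 1238 and 1972.

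In mm10, Car10 (Entrez 72605) spans chr11:93099290-93601751 on the plus strand, Npy1r (18166) chr8:66697422-66706798 on the plus strand and Serpina5 (268591) chr12:104101113-104106137 on the plus strand. Slitrk5 (75409) spans chr14:111675115-111683135 on the plus strand and Myh6 (17888) chr14:54941921-54966607 on the minus strand. RefSeq (GRCm38.p6, the assembly of mm10) holds a promoter for each of the 5 genes, with 2 start sites for Car10, of which the second is the start of the gene in the count table. The sequence before the start is shown for Car10, Myh6 and Serpina5, which with GPI were lowest in M1 and highest in M4 (below); most of the windows of Npy1r and Slitrk5 overlaps exons, and these are not shown. The windows reach up to 250 bases before the start, are trimmed where a GENCODE M21 exon begins, and lie at chr11:93099040-93099289, chr14:54966642-54966857 and chr12:104100863-104101112. They read 5′ to 3′ on the strand of the gene, and capitals mark a match to 1 of the motifs listed after them.
Car10: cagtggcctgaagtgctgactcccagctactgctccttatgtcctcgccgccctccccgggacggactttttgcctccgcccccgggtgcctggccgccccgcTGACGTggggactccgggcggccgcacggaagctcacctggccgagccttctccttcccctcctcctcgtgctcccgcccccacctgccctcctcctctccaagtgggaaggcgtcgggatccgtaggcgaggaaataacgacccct
Myh6: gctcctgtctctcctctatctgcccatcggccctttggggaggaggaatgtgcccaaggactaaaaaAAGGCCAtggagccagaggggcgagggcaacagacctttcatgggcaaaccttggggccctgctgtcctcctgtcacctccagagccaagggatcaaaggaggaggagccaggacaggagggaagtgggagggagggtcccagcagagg
Serpina5: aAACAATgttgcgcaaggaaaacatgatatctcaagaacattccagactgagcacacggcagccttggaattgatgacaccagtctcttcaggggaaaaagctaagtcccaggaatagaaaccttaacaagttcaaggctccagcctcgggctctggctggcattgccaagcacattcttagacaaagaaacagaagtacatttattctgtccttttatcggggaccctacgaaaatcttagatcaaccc

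Short motifs known from the binding sites of gonadal and general factors (NR5A1, GATA factors, SOX factors, the cyclic AMP response element, the TATA box and the E box, each in 1 or 2 forms) were searched on both strands of the 250 bases before each start. There were 3 matches in all. The short form of the cyclic AMP response element, TGACGT, began 147 bases before the second start of Car10, and 6.47% of 32851 RefSeq promoters of the same length hold it. A variant NR5A1 motif, AAGGCCA, began 183 bases before the start of Myh6, and 5.24% of all promoters hold it. The SOX motif, AACAAT, began 249 bases before that of Serpina5, and 9.42% hold it. The main form of the NR5A1 motif was in 0 of the windows of the selected genes and in 4.08% of all. The windows differed in base composition: GC content was 74.8% before the RefSeq start of Slitrk5, which lies inside the span given above, 68.8% before the second start of Car10, 59.2% before Myh6, 53.6% before Npy1r and 44.8% before Serpina5, beside a median of 52.4% over all promoters. These matches describe letters only.

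Car10 encodes a carbonic anhydrase-related protein that lacks the enzyme activity and binds neurexins at the cell surface. Its normalized counts in the vehicle group were 0 in M1, 9.55 in M2, 5.58 in M3, 8.96 in M4 and 12.2 in M5. With GPI they were 42.5, 64.1, 114, 160.0 and 91.6 in the same order. The groups did not overlap, and the lowest GPI value was 3.49 times the highest vehicle value. Means were 7.26 ± 4.69 (SD, n = 5) and 94.4 ± 45.6 (SD, n = 5), and the log2 fold change was 3.68 with an SE of 0.39. M1 was lowest in both groups, and its vehicle library held 0 reads of Car10, so that the ratio of this pair (4.48 on the log2 scale) depends on the prior count of 2; without M1 the log2 fold change was 3.47.

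Npy1r encodes the Y1 receptor, a G protein-coupled receptor for neuropeptide Y and peptide YY. In the vehicle group it had 5.53 normalized counts in M1, 14.3 in M2, 8.93 in M3, 16.9 in M4 and 13.7 in M5. The GPI libraries had 146, 165, 132, 118 and 184. The GPI values were close to each other, with a coefficient of variation of 17.6%, and every one of them was far above the vehicle range: the lowest, in M4, was 6.96 times the highest vehicle value, the widest gap of the 5 genes. The mean was 11.9 ± 4.58 (SD, n = 5) in the vehicle group, against 149 ± 26.2 (SD, n = 5) in the GPI group, with a log2 fold change of 3.64 and an SE of 0.26.

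Slitrk5 encodes a single-pass membrane protein with leucine-rich repeats that binds receptor tyrosine phosphatases across the synapse. Vehicle-treated gonads had 11.1, 19.1, 18.98, 11.95 and 31.2 normalized counts from M1 to M5, and GPI-treated gonads had 149.99, 123, 127, 110.5 and 157. As for Npy1r, the GPI libraries varied little (coefficient of variation 14.5%), M5 was highest and M4 was lowest. The mean was 18.5 ± 8.07 (SD, n = 5) in the vehicle group, against 134 ± 19.3 (SD, n = 5) in the GPI group, and the log2 fold change was 2.88 with an SE of 0.24.

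Myh6 encodes the alpha heavy chain of cardiac myosin and was the most abundant of the 5 genes. Its normalized counts were 53.1, 173, 115, 78.7 and 95.2 with vehicle and 475, 624, 790.4, 1186 and 962 with GPI, from M1 to M5. The lowest GPI value was 2.74 times the highest vehicle value, and M1 was lowest in both groups. Means were 103 ± 45.2 (SD, n = 5) and 807 ± 279 (SD, n = 5), a log2 fold change of 2.99 with an SE of 0.22. Part of the sequence is shared with its neighbor: of 6904 distinct windows of 75 bases in Myh6 transcripts, 947 (13.7%) also occur in Myh7 transcripts, and whether this moved counts between the 2 genes was not tested. Mir208a lies within Myh6 and had at most 2 counts in any library.

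Serpina5 encodes protein C inhibitor, a secreted serpin that blocks activated protein C, plasminogen activators and the sperm protease acrosin. Vehicle values were 8.85, 14.3, 10.05, 13.9 and 15.2 normalized counts, and GPI values were 17.9, 91.6, 123, 218 and 98.1, from M1 to M5. The gonads of M1 differed least: 17.9 with GPI was 1.18 times the highest vehicle value, and its log2 ratio was 0.87, against 2.52 to 3.78 in the other 4 mice. The mean was 12.48 ± 2.84 (SD, n = 5) in the vehicle group, against 109.6 ± 72.0 (SD, n = 5) in the GPI group. The log2 fold change was 2.93 (SE 0.35), and 3.20 without M1.

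**Figure D1:**
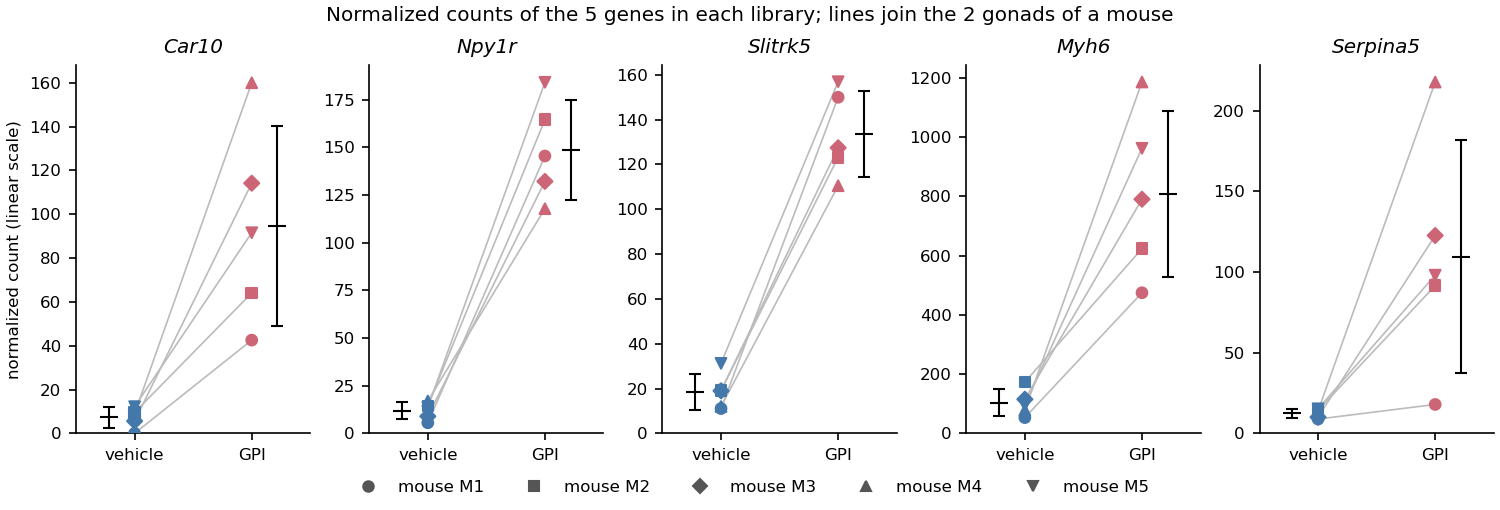
Normalized counts (vertical axis, linear, a scale per panel) of the 5 genes in the vehicle and GPI libraries; symbols are mice, gray lines join the gonads of a mouse, and the bars beside the points are the mean ± SD of 5 libraries. The GPI values lie above the vehicle values in every panel, and for Serpina5 M1 has 17.9 with GPI.

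In the vehicle group M1 was lowest for 5 of 5 genes, and it also had the lowest summed level of the Leydig list (2125) and of the Sertoli list (4809). In the GPI group the genes fell into 2 patterns: Car10, Myh6 and Serpina5 were lowest in M1 and highest in M4, as were the summed Leydig and Sertoli lists, while Npy1r and Slitrk5 were lowest in M4 and highest in M5. The coefficients of variation between GPI libraries were 48.2%, 34.6% and 65.7% for Car10, Myh6 and Serpina5. Compared per kilobase of exon, levels in the vehicle group followed the order Myh6 (15.3 ± 6.73 normalized counts per kilobase, SD), Serpina5 (5.77 ± 1.31), Slitrk5 (3.51 ± 1.53), Npy1r (3.44 ± 1.33) and Car10 (1.14 ± 0.737). With GPI the levels per kilobase were 120.0 ± 41.5 for Myh6, 50.7 ± 33.3 for Serpina5, 43.1 ± 7.59 for Npy1r, 25.4 ± 3.67 for Slitrk5 and 14.9 ± 7.17 for Car10. Among 13610 tested genes with a GENCODE length, Car10 stood at percentile 0.169 with vehicle and 21.9 with GPI, and Myh6 at 21.7 and 71.9. The 10529 genes under the count filter are not in this ranking. Car10 had 0 to 16 counts with vehicle and 38 to 152 with GPI, and passed the filter through its GPI libraries. Its place near the bottom with vehicle therefore follows from the filter and is not a result.

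Whether relatives and partners of the 5 genes also changed was asked in the same fit. Of the carbonic anhydrase family without Car10, 10 of 15 genes were tested; 0 were called higher and 3 lower, with a median log2 fold change of 0.03 beside 0.02 over all tested genes. The 3 were Car2, at -3.08 (SE 0.28; adjusted p = 2.94e-06 by edgeR, lower in 5 of 5 mice), Car12 at -1.20 (SE 0.29; adjusted p = 0.00728) and Car3 at -1.44 (SE 0.43; adjusted p = 0.0253). The call of Car3 was lost with DESeq2 (adjusted p = 0.0536) and without M2, M4 or M5; without M3 it was not tested. The other family members without enzyme activity, Car8 and Car11, had log2 fold changes of 0.04 (SE 0.41) and 0.42 (SE 0.26) and did not pass the edgeR test (adjusted p = 0.957 and 0.281).

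Of 15 genes for neurexins and their binding partners, 7 were called higher and 3 lower, and the median log2 fold change was 0.73. Nrxn3 rose by 0.97 (SE 0.19; edgeR adjusted p = 0.00177) in 5 of 5 mice. So did the postsynaptic partners Nlgn1 (1.27), Lrrtm1 (1.20), Lrrtm3 (0.95) and Lrrtm4 (0.73), and the secreted cerebellins Cbln2 (1.78) and Cbln4 (1.07, in 4 of 5 mice), with edgeR adjusted p between 3.13e-05 and 0.0355. Nlgn3 (-1.26), Clstn1 (-0.39) and Clstn2 (-1.86) fell in 5 of 5 mice, with edgeR adjusted p of 0.0189, 0.00936 and 9.26e-07. The calls of Cbln4 (without M1, M3, M4 or M5), Lrrtm1 (without M1 or M3) and Nlgn3 (without M2 or M4) were lost when a mouse was left out.

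The ligands of the Y1 receptor were at or near 0. Pyy and Ppy had 0 counts in all 10 libraries and Npy at most 2. Npy5r, the receptor gene next to Npy1r, had 0 counts with vehicle and at most 1 with GPI. Of the 8 other genes of the NPY system 2 were tested and 0 were called in either direction: the Y2 receptor gene Npy2r was at -1.55 (SE 0.69; edgeR adjusted p = 0.130) and the peptidase gene Dpp4 at -0.34 (SE 0.46; edgeR adjusted p = 0.665; log2 fold change 0.23 without M1). Npy1r itself was read 112 to 203 times per GPI library.

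Among 5 relatives of Slitrk5, 4 were tested, with 1 called higher, 1 lower and 2 neither. Slitrk4 rose by a log2 fold change of 1.72 (SE 0.18; edgeR adjusted p = 1.14e-05, in 5 of 5 mice), from 59.0 to 189 normalized counts. Slitrk1 fell by 0.84 on the log2 scale (SE 0.21; edgeR adjusted p = 0.0107, in 5 of 5 mice; 0.0604 without M4), and Slitrk6 was at -0.42 (SE 0.25; edgeR adjusted p = 0.258). Slitrk2, the most abundant of them (420 normalized counts with vehicle, 507 with GPI), was at 0.28 (SE 0.15; edgeR adjusted p = 0.195) and was called higher without M4. Of 9 phosphatase and neurotrophin partners of the family 2 of 8 tested genes were called higher and 0 lower (median 0.20). They were the phosphatase genes Ptprd (0.68, SE 0.08; edgeR adjusted p = 3.27e-05), which had 5227 normalized counts with vehicle and 8428 with GPI, and Ptprf (0.28, SE 0.08; edgeR adjusted p = 0.028). The call of Ptprf was lost with total-count scaling (edgeR adjusted p = 0.0629) and without M2, M3 or M4.

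Of 12 other myosin heavy chain genes 6 were tested, with 1 called higher and 2 lower (median -0.12). Myh7, which encodes the beta cardiac chain, rose by 1.76 (SE 0.25; edgeR adjusted p = 0.00016, in 5 of 5 mice), from 34.3 ± 16.0 to 112 ± 23.8 normalized counts (SD, n = 5); the shared windows above bear on this value. The nonmuscle chains Myh9 and Myh10 fell by 0.50 and 0.41 on the log2 scale (edgeR adjusted p = 0.000106 and 0.000222). A list of cardiac muscle genes holds parts of the sarcomere, calcium handling proteins such as Ryr2 and Casq2, and peptide hormones such as Nppa. Without Myh6, 8 of its 12 tested genes were called higher and 1 lower, with a median of 0.87, and 8 of 20 were too low to test. Beside Myh7 the higher ones were Tnnt2 (1.63), Tnni3 (1.15), Ttn (1.14), Mybpc3 (0.94), Ryr2 (0.94), Casq2 (0.80) and Tnni1 (0.70), each in 5 of 5 mice and with edgeR adjusted p from 2.19e-05 to 0.0173; the call of Tnni1 was lost without M3, M4 or M5. Tpm1, the most abundant gene of this list, fell by 0.45 on the log2 scale (edgeR adjusted p = 0.000342).

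Levels within the cardiac lists differed widely. With GPI Tnni3 reached a mean of 943 normalized counts (421 with vehicle), Mybpc3 338 (173) and Tnnt2 168 (55.3). Other genes of heart muscle were near 0: Nkx2-5 had 0 counts in all 10, and the mean levels with GPI were 0.224 normalized counts for Myl2, 0.162 for Myl3, 5.98 for Actc1 and 8.20 for Nppa. The summed cardiac muscle list without Myh6 was 13924 ± 1097 (SD, n = 5) in the vehicle group, against 13223 ± 559 (SD, n = 5) in the GPI group. Most of both sums came from Tpm1, with a mean of 9585 with vehicle and 6970 with GPI. The sums therefore say little about the other genes of the list. Of 12 regulators of cardiac genes 8 were tested, 2 higher and 1 lower (median 0.04): Gata4 at 0.53 and the thyroid hormone receptor gene Thrb at 1.56 rose, and Mef2c fell by 0.55 on the log2 scale (edgeR adjusted p = 0.000845, 0.000192 and 0.000129).

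Serpina5 lies among other serpin genes of its clade, few of which had enough counts to be tested. Of 21 relatives 2 were tested and 7 had 0 counts in all libraries. Serpina3a, 6.59 kb away, rose by 2.58 (SE 0.37; edgeR adjusted p = 0.000165, in 5 of 5 mice), from 10.4 ± 5.92 to 64.8 ± 47.7 normalized counts (SD, n = 5), and Serpina3g was at -0.67 (SE 0.29; edgeR adjusted p = 0.123). A list of 15 proteases, with their cofactors and receptors, was drawn up around the targets of SERPINA5; 6 were tested, and these 6 were called lower, while 9 were too low to test. Endothelial, macrophage and germ cell markers were lower in the same libraries (below), and whether the falls of this list differ from theirs was not tested. They were Plaur (-3.33), Procr (-2.71), Plau (-2.38), Acr (-1.98), Plat (-1.23) and Thbd (-0.41), lower in 5 of 5 mice except Thbd (4 of 5), with edgeR adjusted p from 3.65e-08 to 0.0245; the call of Thbd was lost without M3, M4 or M5. The summed level of this list was 4161 ± 506 (SD, n = 5) in the vehicle group, against 2237 ± 188 (SD, n = 5) in the GPI group.

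**Figure D2:**
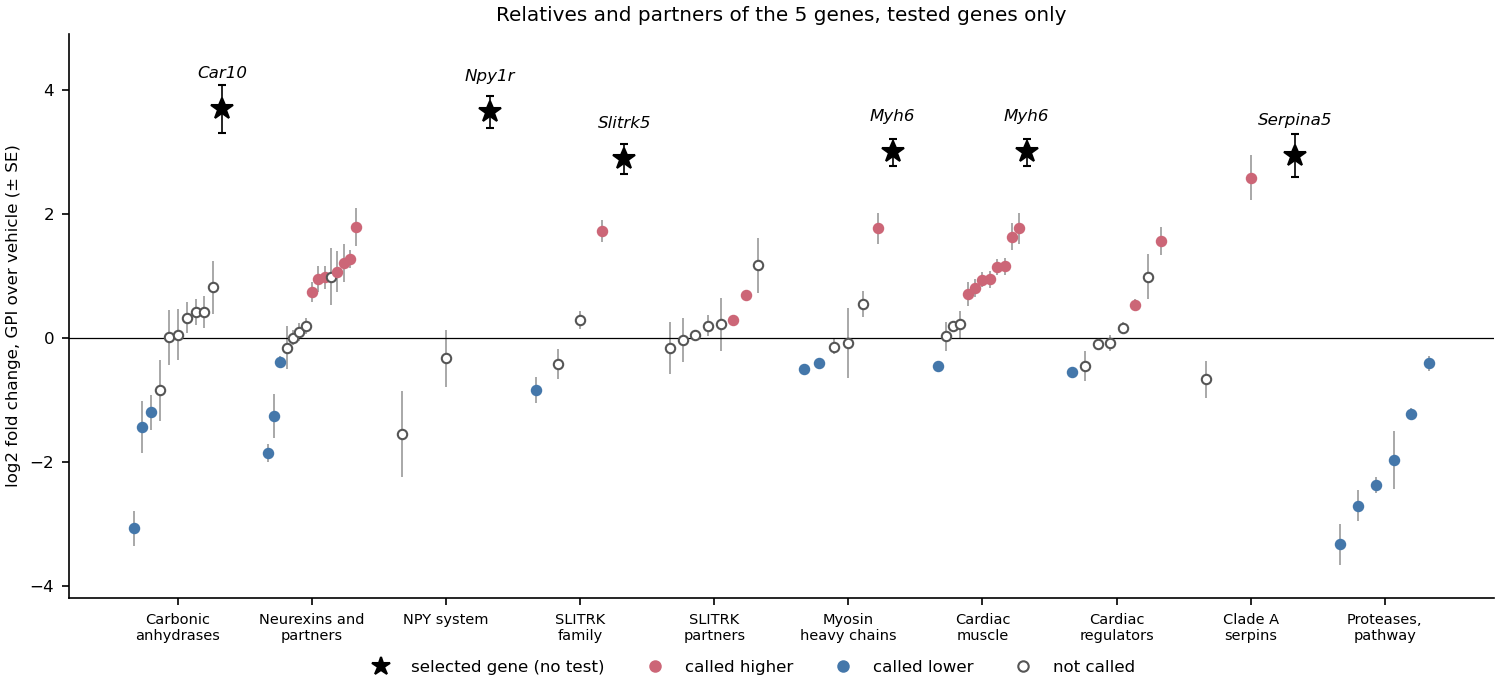
Log2 fold change, GPI over vehicle (vertical axis, ± SE), of the tested genes of each family or partner list; stars are the selected genes, which carry no test, filled circles passed the edgeR test and open circles did not. Car10 at 3.68 is the only gene of its family with a value over 1, while Slitrk4 (1.72), Myh7 (1.76) and Serpina3a (2.58) are higher beside their selected relatives.

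The nearest 2 tested genes on either side of each selected gene were compared to see how far the increase extended on the chromosome. Of these 20 neighbors 4 were called higher, 2 lower and 14 neither, with a median log2 fold change of 0.17. Over all tested genes 11.1% were called higher and 11.9% lower, with a median of 0.02. Among the higher neighbors, Myh7 and Serpina3a are the relatives described above. The nearest tested genes lay 257 kb from Car10, 153 kb from Npy1r and 920 kb from Slitrk5, so shorter distances could not be examined there. Around Car10, Tom1l1 (0.38), Cox11 (0.06), Utp18 (0.07) and Mbtd1 (0.07) did not pass, the nearest 257 kb away. Around Npy1r, Tma16 (0.19), Naf1 (0.27) and Nat2 (0.14) did not pass and Marchf1 fell by 1.16 on the log2 scale (edgeR adjusted p = 0.00387). Slitrk5 has 920 kb to Slitrk6 on 1 side, followed by Slitrk1, and 3361 kb to Mir17 (1.05) on the other, followed by Mir17hg (0.15). Mir17 and Mir17hg did not pass. Efs, 15.1 kb from Myh6, rose by 0.69 (edgeR adjusted p = 0.0204), while Slc22a17 (0.31) and Ngdn did not pass. Beside Serpina5, Ifi27 rose by 0.49 (edgeR adjusted p = 0.0152) and Ppp4r4 was at 0.57 (edgeR adjusted p = 0.0664). The calls of Marchf1, Efs and Ifi27 were lost without the replicate block (edgeR adjusted p = 0.0642, 0.0598 and 0.0852), that of Efs also without M1 or M4 and that of Ifi27 without M3. Calls were gained by Tom1l1 without M5 and by Ppp4r4 without M2 (edgeR adjusted p = 0.0273 and 0.0265).

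**Figure D3:**
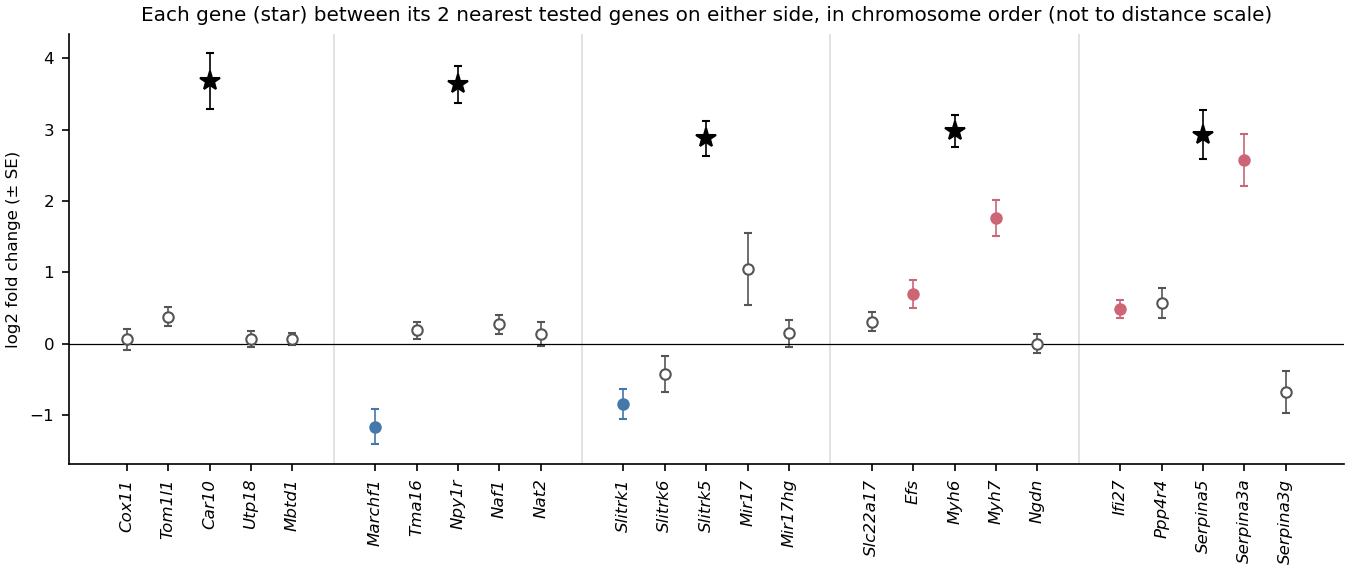
Log2 fold change (vertical axis, ± SE) of each selected gene (star) and of its 2 nearest tested genes on either side, in chromosome order and without a distance scale; filled circles passed the edgeR test. Myh7 (1.76) and Serpina3a (2.58) are the neighbors with the largest increases.

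Leydig and Sertoli genes rose in the same gonads. The Leydig list was called higher in 9 of 9 tested genes of 10, with a median log2 fold change of 1.63; Cyp17a1, the enzyme that commits steroids to androgens, rose from 112 to 1612 normalized counts. Summed Leydig levels from M1 to M5 were 2125, 3916, 5341, 3036 and 6937 with vehicle and 12448, 13052, 19436, 22274 and 16544 with GPI. Of the 14 Sertoli genes 11 were called higher and 0 lower (median 0.64): Sox9 rose by 0.59 (edgeR adjusted p = 0.000408), and Amh was at 0.08 (edgeR adjusted p = 0.842). Summed Sertoli levels from M1 to M5 were 4809, 6855, 5276, 6546 and 7681 with vehicle and 7160, 11402, 12161, 14504 and 11444 with GPI.

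Since all of these differ between treatments, the relation of each gene to the 2 cell types was taken within treatment. Each library's log2 level was expressed as its deviation from the mean of its treatment, and the Leydig score (9 genes) and Sertoli score (14 genes) are the mean deviation over the list. The 10 libraries come from 5 mice, with 2 gonads each. For the 10 relations, libraries were permuted within treatment (14400 arrangements, exact permutation, both directions counted) and p-values were adjusted over the family by Benjamini-Hochberg. Of the 10, 3 passed 0.05 after adjustment by Pearson's r and 2 by Spearman's rho.

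Serpina5 followed the Sertoli score most closely (r = 0.893, exact permutation p = 0.000208, adjusted 0.00174; rho = 0.903, p = 0.000417, adjusted 0.00417). Car10 came next (r = 0.848, exact permutation p = 0.000347, adjusted 0.00174; rho = 0.855, p = 0.00757, adjusted 0.0378). For differences between the gonads of a mouse, r with the Sertoli score was 0.799 for Serpina5 but 0.336 for Car10. Car10 also followed the Leydig score by r (0.810, exact permutation p = 0.00924, adjusted 0.0308), but not by rho (0.624, p = 0.0801, adjusted 0.16). By r this relation passed without M3 and did not pass without M1, M2, M4 or M5 (adjusted exact permutation p = 0.382, 0.0694, 0.0637 and 0.108), where r was 0.520, 0.818, 0.909 and 0.794; it was lower than in the full data by over 0.1 only without M1. These relations rest in part on the libraries of M1. Without the 2 libraries farthest from the median of the score, which for the Sertoli score were those of M1, r was 0.721 for Serpina5 and 0.797 for Car10 with the Sertoli score and 0.537 for Car10 with the Leydig score, and 0 of 10 relations passed (2 had an unadjusted exact permutation p under 0.05; smallest adjusted p = 0.0521). Moving both gonads of a mouse together, a test added after the data were seen, leaves 120 arrangements, so that p cannot fall below 0.00833 and a single relation among 10 could not reach 0.05 after adjustment. By this test 0 of 10 passed (4 had an unadjusted exact permutation p under 0.05; smallest adjusted p = 0.0625), and Serpina5 with the Sertoli score was at the smallest possible exact permutation p. A further limit is that vehicle counts were low: 0 to 16 for Car10, 5 to 18 for Npy1r and 8 to 20 for Serpina5. The vehicle value of Car10 in M1, 1.95 below the treatment mean on the log2 scale, is set by the prior count on 0 reads.

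The other relations did not pass in the main analysis. After the DESeq2 variance stabilizing transformation Myh6 passed with the Sertoli score and Serpina5 with the Leydig score (adjusted exact permutation p = 0.0476 and 0.0431), as did Myh6 with the Leydig score without M2 (0.0405). Myh6 had r = 0.669 with the Leydig score (exact permutation p = 0.0578, adjusted 0.0964; rho = 0.624, p = 0.0787) and 0.721 with the Sertoli score (p = 0.0242, adjusted 0.0606; rho = 0.6, p = 0.0999). Without M1 these 2 values of r were 0.350 and 0.263. Serpina5 had r = 0.439 with the Leydig score (exact permutation p = 0.0338, adjusted 0.0676; rho = 0.612, p = 0.0501). Slitrk5 had 0.718 with the Leydig score (exact permutation p = 0.075, adjusted 0.107; rho = 0.515, p = 0.214) and 0.248 with the Sertoli score (p = 0.472, adjusted 0.525; rho = 0.248, p = 0.53). The Leydig value was 0.461 after the transformation, 0.184 without the 2 farthest libraries, 0.864 without M4 and 0.892 for differences between the gonads of a mouse. Within the 5 libraries of each treatment the signs of Slitrk5 differed: r was 0.941 with vehicle and -0.517 with GPI for the Leydig score, and 0.768 and -0.662 for the Sertoli score. Npy1r was lowest with the Leydig score (r = 0.273, exact permutation p = 0.583, adjusted 0.583; rho = -0.103, p = 0.808), and without M1 this r was -0.602. With the Sertoli score Npy1r had r = 0.391 (exact permutation p = 0.249, adjusted 0.312; rho = 0.176, p = 0.658), 0.021 without M1 and -0.582 for differences between the gonads of a mouse. Within the vehicle and GPI libraries Npy1r had r = 0.468 and -0.619 with the Leydig score and 0.851 and -0.224 with the Sertoli score. For Car10, Myh6 and Serpina5 r with either score was positive in both treatments, from 0.551 to 0.984. For differences between the gonads of a mouse, r with the Leydig score was 0.787, 0.493 and -0.0868 in the same order. With the Sertoli score it was 0.336, 0.192 and 0.799. The values within a treatment rest on 5 libraries each, with few counts in the vehicle group, and those for differences rest on 5 mice.

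**Figure D4:**
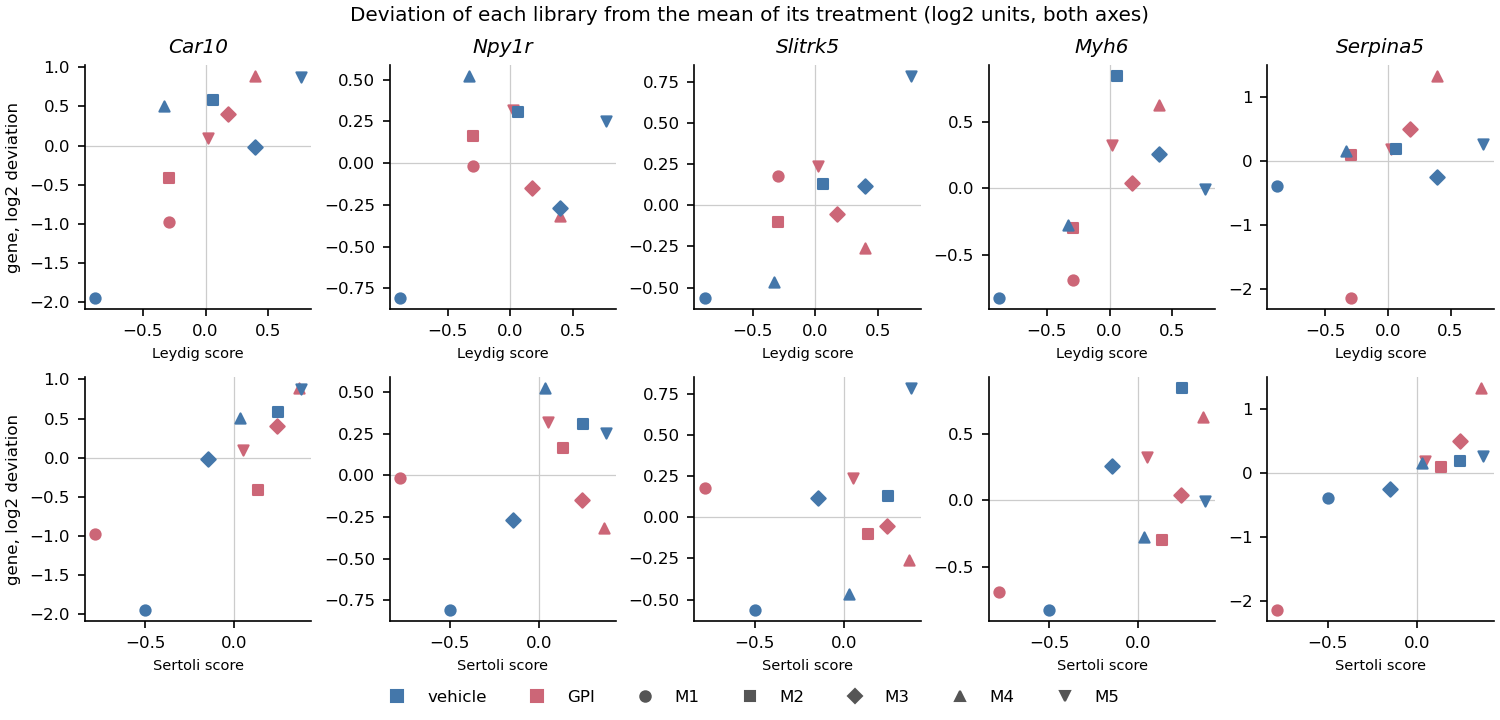
Deviation of each gene (vertical axes) against that of the Leydig score (upper row) and the Sertoli score (lower row), both in log2 units from the mean of the treatment; colors are treatments and symbols mice. The M1 libraries lie at the lower left for Serpina5 and Car10 against the Sertoli score, where r is 0.893 and 0.848.

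Among the 10 pairs of selected genes, 1 passed after adjustment: Car10 with Serpina5 (r = 0.655, exact permutation p = 6.94e-05, the smallest that 14400 arrangements can give, adjusted 0.000694; rho = 0.879, p = 0.00208, adjusted 0.0208). Without the 2 libraries farthest from the median of Car10 it was 0.913 (adjusted exact permutation p = 0.0174); with both gonads of a mouse moved together the exact permutation p was 0.00833, the smallest that 120 arrangements can give (adjusted 0.0833), and the differences between the gonads of a mouse correlated at r = -0.203 over 5 mice. Car10 with Myh6 (r = 0.771, adjusted exact permutation p = 0.0685) and Myh6 with Serpina5 (r = 0.643, adjusted exact permutation p = 0.0685) came next, and without M1 their r was 0.402 and 0.438. The 7 pairs with Npy1r or Slitrk5 had r between -0.116 and 0.590, with adjusted exact permutation p of 0.351 or more. In the vehicle libraries, with few counts, and in the GPI libraries r was 0.919 and -0.500 for Car10 with Npy1r, 0.655 and -0.605 for Car10 with Slitrk5, and 0.934 and -0.299 for Npy1r with Serpina5. For differences between the gonads of a mouse, Npy1r with Serpina5 was at r = -0.865.

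Genes with the most similar deviations over the 10 libraries, out of 11104 with a mean of at least 50 counts, differed for each of the 5. For Car10 they were Ttll5 (r = 0.957), Paqr8 (0.948) and Me1 (0.947), and for Serpina5 Ppt1 (0.975), Kif21a (0.974) and Fmn2 (0.973). Myh6 was followed by Fut8 (0.966), Rab2b (0.961) and Scara3 (0.956). For Npy1r the highest were Crtac1 (0.919), Mexis (0.912) and Exoc8 (0.909), and for Slitrk5 Gpr180 (0.936), Nrg1 (0.916) and Map2k7 (0.906). These are the largest of many values and describe likeness only. Likeness within treatment is separate from the change with GPI. Of the genes named, Paqr8, Me1, Nrg1, Ppt1 and Kif21a were called higher with GPI by edgeR. Fmn2 was called lower (log2 fold change -1.01, edgeR adjusted p = 0.0033), and the rest were not called.

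Markers of other cell types moved between the same libraries. Endothelial genes were called lower in 12 of 12, with a median log2 fold change of -3.16; their summed level was between 10091 and 11421 with vehicle and between 787 and 1501 with GPI, and the most abundant, Cdh5, went from 2827 to 232 normalized counts. Macrophage genes were lower in 9 of 10 (median -1.88), summing to 965 to 1344 with vehicle and 287 to 550 with GPI, led by Lyz2 (282 and 93.3). Of 7 tested germ cell genes of 12, 5 were lower and 0 higher (median -4.62), and the sum went from between 1537 and 2931 to between 730 and 970, of which Kit, also made by other cells, held 857 and 771. The part of these shifts in the increases of the 5 genes was not tested.

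Further lists held markers of the remaining cell types. Interstitial progenitor genes were higher in 2 and lower in 4 of 12 (median -0.10), summing to 21910 to 24172 with vehicle and 20538 to 24695 with GPI, with Pdgfra first. Coelomic epithelium genes were higher in 3 and lower in 0 of 9 tested (median -0.04), with sums from 10003 to 11088 and from 10357 to 12264 and Wt1 first. Mesonephros genes were lower in 1 and higher in 0 of 4 tested (median -0.18), with sums from 1330 to 2350 and from 938 to 1517 and Emx2 first; M1 had the highest vehicle sum. Neural and Schwann genes were higher in 1 and lower in 1 of 6 tested (median -0.54), with sums from 3016 to 4242 and from 1635 to 2256; Foxd3 had 0 counts in all libraries and Ngfr was first. Of the adrenal cortex list 2 of 5 tested genes were higher and 0 lower (median 0.36), with sums from 772 to 3072 and from 3858 to 7120, nearly all from Hsd3b1, which the Leydig list holds too; Cyp21a1 and Cyp11b2 had 0 counts in all libraries. The part of these lists in the increases of the 5 genes was not tested.

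**Figure D5:**
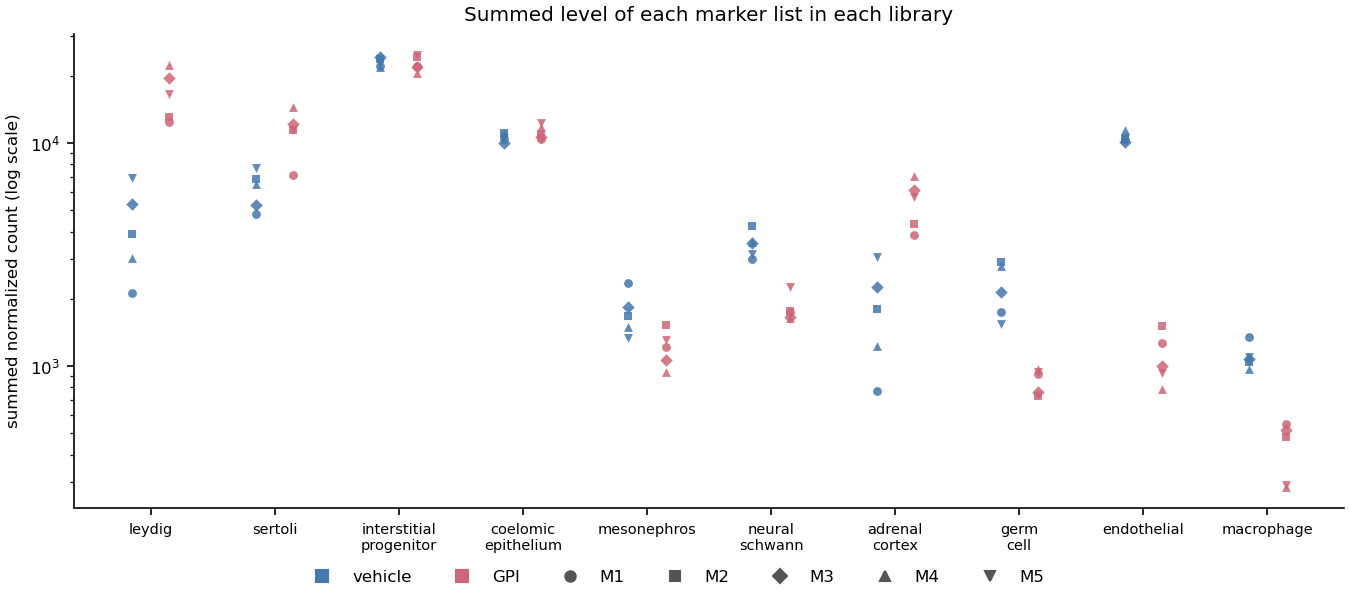
Summed normalized counts (vertical axis, log scale) of each marker list in each library; colors are treatments and symbols mice. The endothelial sums lie between 10091 and 11421 with vehicle and between 787 and 1501 with GPI, while the Leydig and Sertoli sums are higher with GPI in every mouse.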

How the data were processed

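RNA of 10 cultured gonads was measured, and the labels give both gonads of an embryo the same mouse number. Per the labels and the paper, the deposited values are a count of read pairs per gene, made by the authors with STAR for alignment to mm10 and featureCounts (Subread) without regard to strand. From these counts, edgeR 4.0.16 in R 4.3.3 (limma 3.58.1) applied TMM scaling, a low-count filter (filterByExpr, minimum 10 per library and 15 in total) and a quasi-likelihood fit with mouse and treatment. p-values were adjusted by Benjamini-Hochberg over 13941 genes at 0.05. Residual profiles of the gonads of a mouse correlated at -0.04 to 0.155 (mean 0.06), against -0.01 between mice. DESeq2 1.42.0, its size factors, no filter, no block, total counts and leaving out each mouse were the alternatives. Permutations, sequences and figures used Python 3.11.15 (numpy 2.4.6, pandas 2.3.3, scipy 1.17.1, matplotlib 3.10.9), with gene ends and exon lengths from GENCODE M21 and start sites from RefSeq. Depth was 10203679 to 15635322 counts, and genes under the filter (10529 of 24470) have values but no test. The genes named are the selected 5, the edge of their ranking, called genes of family and partner lists, close relatives, chromosome neighbors, the main markers and the 3 most similar genes of each. In the lists, 1 gene was left out afterwards and is not reported here. The selected genes and the lists were chosen with earlier results of these data known. Permuting whole mice was chosen after seeing the data.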

Additional observations from a re-analysis of the deposited data

Results flagged for a closer look

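In 63 groups of 5 libraries, a value was marked when its gap to the next value, as a share of the range, passed Dixon's limit for 5 values, which about 1 in 20 groups passes by chance. There were 4 such values. The summed neural and Schwann list in the GPI group was highest in M5, at 2256 normalized counts beside a median of 1747. The summed Slitrk family without Slitrk5 was lowest in the GPI library of M4, at 784 beside a median of 948. The summed clade A serpins without Serpina5 were highest in the vehicle library of M4, at 141 beside a median of 73.0. The summed proteases and partners of Serpina5 were highest in the GPI library of M2, at 2562 beside a median of 2184. The cause was not tested for any of them.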

How the results depend on the processing

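Calls numbered 3198 with the replicate block and 3108 without it, 3202 with DESeq2, 3194 with its size factors, 3472 with no filter and 3210 with total counts (1238 higher and 1972 lower). Genes called higher (1544) were 969 to 1430 with a mouse left out, where fewer libraries were tested. Leave-one-out log2 fold changes were 3.47 to 3.99 for Car10, 3.44 to 3.89 for Npy1r, 2.68 to 3.06 for Slitrk5, 2.76 to 3.30 for Myh6 and 2.60 to 3.20 for Serpina5. Of 686 values of 69 other named genes, 637 kept direction and call, 29 lost the call, 3 gained it and 17 changed sign. Sign changes were those of Amh (-0.12 to 0.29 with a mouse left out), Car8 (-0.00334 with total counts; -0.14 to 0.28), Cox11 (-0.0348 to 0.18), Dpp4 (-0.81 to 0.23), Mbtd1 (-0.0411 to 0.10), Mir17hg (-0.0603 to 0.28) and Ngdn (-0.00609 with DESeq2, -0.00820 with its size factors, -0.00313 with no filter, -0.0497 with total counts; -0.0770 to 0.0698). Numbers of called list genes also moved, and the following are examples, with ranges being those with a mouse left out. Interstitial lower was 1 to 5, adrenal higher 1 to 2 and neural lower 1 to 2. The Slitrk family had 1 to 2 higher and 0 to 1 lower. Slitrk partners higher were 1 to 3, with 1 by total counts and 3 with no filter. Myosins higher were 1 to 2, and 2 with no filter. Germ cell lower was 8 with DESeq2 and 8 with no filter, and coelomic lower was 1 with total counts. Sertoli higher was 9 to 11, and 8 with no replicate block. Neurexin partners higher were 5 to 7, and cardiac regulators higher 2 to 3. Within treatment, the following are r with a mouse left out (range), without the 2 farthest libraries, and for differences between the gonads of a mouse: Car10 with Leydig 0.520 to 0.909, 0.537, 0.787; Car10 with Sertoli 0.797 to 0.884, 0.797, 0.336; Serpina5 with Sertoli 0.721 to 0.920, 0.721, 0.799. Permuting whole mice changes only p, so r stayed at 0.810, 0.848 and 0.893 and, for Car10 with Serpina5, at 0.655, and these 4 calls were lost. With the DESeq2 variance stabilizing transformation r was -0.0296 for Npy1r with Leydig, 0.740 for Myh6 with Sertoli and 0.506 for Serpina5 with Leydig. Without the 2 farthest libraries Npy1r with Leydig was -0.777. With a mouse left out Npy1r with Leydig was -0.602 to 0.663, Slitrk5 with Sertoli -0.0709 to 0.436 and Myh6 with Leydig 0.350 to 0.860. Between selected genes, Car10 with Npy1r was -0.0172 after that transformation, -0.115 to 0.803 with a mouse left out and -0.115 without the 2 farthest. Car10 with Slitrk5 was -0.0200 after it. Car10 with Serpina5 was -0.203 for differences between gonads, where others below 0 were Npy1r with Leydig (-0.113), Sertoli (-0.582), Myh6 (-0.274) and Serpina5 (-0.865), Slitrk5 with Sertoli (-0.00615) and Serpina5 (-0.504), and Serpina5 with Leydig (-0.0868). Npy1r with Slitrk5 was -0.00392 to 0.791, Npy1r with Myh6 -0.331 to 0.723 (-0.0691 without the 2 farthest), Npy1r with Serpina5 -0.280 to 0.297 (-0.121 without the 2 farthest, -0.232 after the transformation) and Slitrk5 with Serpina5 -0.366 to 0.0778. The cause was not tested. The relations rest on 5 mice and 10 libraries, and genes near 0 counts could not be compared.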
